A study of Mus musculus with 69 samples.

Results

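The mRNA of 10 integrin subunits was followed in bone marrow-derived macrophages (BMDMs) given IL-4, out of 24537 genes listed in each of the 3 main tables. The members were taken by symbol: Itgax, Itgam, Itgal and Itgb2 of the leukocyte (beta 2) family, Itgb1 with its partners Itga4 and Itga6, Itgav with Itgb5, and Itgb7. All 10 are listed in every table and passed the filter of 1 TPM in 2 or more libraries in the 3 main tables (TPM, transcripts scaled for gene length and for the depth of the library, so that levels of different genes are per length). IL-4, a type 2 cytokine, was given at 20 ng/ml. BMDMs came from female mice of SPRET/EiJ (SPRET), a wild-derived strain, PWK/PhJ (PWK), also wild-derived, and the laboratory strains NOD/ShiLtJ (NOD), BALB/cJ (BALB) and C57BL/6J (C57), grown with M-CSF and left basal or given IL-4 for 24 hours (3 libraries each, 2 for PWK basal). C57 and SPRET cells were also taken at 0, 1, 6 and 24 hours. The same times were taken for cells of Egr2 fl/fl mice (Egr2WT) and of LyzM-Cre Egr2 fl/fl mice (Egr2MKO), with 2 libraries per group. Both of these genotypes carry the floxed Egr2 allele, and LyzM-Cre, which is active in myeloid cells, is in Egr2MKO only, so that the presence of Cre and the loss of Egr2 cannot be told apart. F1 cells of C57 x NOD and C57 x SPRET, basal or after 24 hours of IL-4, had 2 libraries per group. The sources used here do not say which libraries share an animal, so the p-values measure the spread between these libraries.

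Integrins are adhesion receptors made of an alpha and a beta chain, which bind counter-receptors on other cells or proteins of the extracellular matrix and connect them to the actin cytoskeleton. The beta 2 chain (Itgb2, CD18) pairs with alpha L (Itgal, CD11a, LFA-1), alpha M (Itgam, CD11b, Mac-1) and alpha X (Itgax, CD11c). Itgax is widely used as a marker of dendritic cells and of alveolar and other tissue macrophages. Alpha 4 pairs with beta 1 or beta 7 and binds VCAM-1 and fibronectin, alpha 6 binds laminins, and alpha v with beta 5 binds vitronectin and takes part in the uptake of apoptotic cells.

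The depth was between 7.02 and 22.5 M tags per library (M, 1000000) in the 5 strains, between 5.70 and 24.0 in the time course and between 4.69 and 32.9 in the Egr2 libraries. TPM was scaled in each library, and each table was fitted on its own. Levels also differed between the tables for the same strain (C57 basal Itgax was 11.2 TPM in the 5 strains and 79.3 TPM in the time course). The TPM of all genes added up to between 629935.3 and 690215 per library in the 5 strains and between 602020.2 and 655053.5 in the time course. The cause of the difference in level was not tested, and tests were made within a table only. The libraries had the macrophage genes of the marker list at a summed 11820 TPM or more. Lymphocyte markers added up to at most 6.86 TPM. Of the dendritic cell markers, Flt3 stayed at or below 0.468 TPM and Zbtb46 at or below 6.69 TPM in every library. Batf3, the gene that made up most of that list with IL-4, rose in each of the 5 strains, alongside Itgax. Ccr7, not Batf3, had the highest mean of that list in PWK basal. The basal mean of Ccr7 was higher in PWK and BALB than in the other strains, as was that of Itgax. The 10 markers of that list added up to between 3.36 and 10.4 TPM in the basal libraries of the 5 strains and between 9.50 and 28.1 TPM with IL-4, and the part of such cells in the Itgax values was not tested. The 12 granulocyte markers added up to between 549 and 555 TPM in PWK basal, between 349 and 409 TPM in SPRET basal and between 108 and 132 TPM in C57 basal (S100a8 at 346, 366 and 97.3 TPM), and the stromal gene Dcn was at 204 TPM in PWK basal against 5.16 TPM in C57. The part of these markers in the PWK and SPRET values was not tested. Fewer cells of a type and less RNA per cell cannot be told apart in such bulk libraries.

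Itgam and Itgax lie next to each other on chromosome 7 (mm10, plus strand), at chr7:128062640-128118491 and chr7:128129568-128150657, and Itgal lies at chr7:127296260-127335137. Itgb2 is at chr10:77530348-77565674, Itgb1 at chr8:128685654-128733579, Itga4 at chr2:79255426-79333114, Itga6 at chr2:71786939-71858427, Itgav at chr2:83724397-83806917 and Itgb5 at chr16:33829665-33949338, all on the plus strand. Itgb7 is on the minus strand at chr15:102215995-102231935. The 250 bases before the RefSeq start (GRCm38.p6, the C57 reference) are shown for Itgax and Itgam, since these neighbours went in opposite directions in SPRET. In capitals are matches to TTC and GAA with any 4 bases between them, a spacing that STAT6 binds, and to GAGGAA, a core bound by PU.1, searched on both strands.
Itgax, chr7:128129300-128129549: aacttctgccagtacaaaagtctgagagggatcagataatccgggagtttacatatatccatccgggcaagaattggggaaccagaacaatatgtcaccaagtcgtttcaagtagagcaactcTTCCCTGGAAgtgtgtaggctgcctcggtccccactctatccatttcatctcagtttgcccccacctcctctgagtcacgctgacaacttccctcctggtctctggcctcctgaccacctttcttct
Itgam, chr7:128062390-128062639: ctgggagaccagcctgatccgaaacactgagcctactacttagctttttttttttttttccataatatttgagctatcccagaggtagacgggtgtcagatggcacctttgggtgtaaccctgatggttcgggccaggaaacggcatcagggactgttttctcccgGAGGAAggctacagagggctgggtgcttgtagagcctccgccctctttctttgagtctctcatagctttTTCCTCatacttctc
The Itgax window holds the TTC and GAA pair from 127 to 118 bases before the start, a motif present in 5.85% of the 32851 promoter windows in the table, and an AP-1 type TGANTCA (6.75% of windows) that is not capitalised. The Itgam window holds GAGGAA once on each strand (23.3% of windows). GCGNGGGCG, an EGR-type motif (4.7% of windows), was in none of the 7 members with a sequence (Itgax, Itgam, Itgb1, Itga4, Itgav, Itgb5 and Itgb7), which says only that these letters are not in these windows. The TTC and GAA pair was in the Itgax window and in none of the other 6.

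Itgax rose with IL-4 in all 5 strains. In C57 BMDMs it was 11.2, 11.8 and 10.7 TPM basal and 82.7, 82.3 and 85.3 TPM after 24 hours, a ratio of means of 7.43 (2.79 ± 0.07, adjusted p = 6.1e-21 from limma, on the log2(TPM + 1) scale with the standard error). In BALB it went from 29.2, 26.0 and 25.1 TPM to 121, 107 and 112 TPM, and in NOD from 5.22, 5.69 and 6.25 TPM to 20.2, 19.7 and 21.6 TPM. In PWK it was 29.6 and 28.9 TPM basal and 69.0, 77.6 and 69.0 TPM with IL-4. SPRET cells held 2.88, 2.54 and 2.80 TPM basal and 29.7, 28.3 and 29.5 TPM with IL-4. Basal and IL-4 libraries did not overlap in any strain. Ordered by size, the log2 response was 3.01 (SPRET), 2.79 (C57), 2.04 (BALB), 1.68 (NOD) and 1.27 (PWK), each with an SE of 0.07 (adjusted p of 9.8e-13 or less from limma). It was smaller than in C57 in NOD (-1.11 ± 0.09, adjusted p = 1.9e-09), in PWK (-1.52 ± 0.10, adjusted p = 3.2e-11) and in BALB (-0.75 ± 0.09, adjusted p = 2.5e-06, limma interaction contrasts). Between SPRET and C57 the responses differed by 0.22 ± 0.09, adjusted p = 0.065 in the limma fit, and by -0.30 (adjusted p = 0.0030, limma) with a pseudocount of 5 TPM, so that the direction depended on the pseudocount.

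The order of Itgax levels changed with IL-4. Basal levels ran from PWK and BALB, at 29.2 and 26.8 TPM, whose difference did not pass (adjusted p = 0.14 from limma), through C57 and NOD to SPRET, a 10.7-fold range in which every further neighbour differed. After IL-4 the order was BALB, C57, PWK, SPRET and NOD, a 5.53-fold range in which all neighbours differed. SPRET had thus the lowest basal level and NOD the lowest level with IL-4. The main effect of strain held 44.4% of the variation of Itgax over the 29 libraries and that of IL-4 held 51.0%. In the 9 other subunits the main effect of IL-4 held between 3.4e-05% (Itgb2) and 27.6% (Itgal). A main effect cancels where strains change in opposite directions. The interaction, the part of the IL-4 change that differs by strain, held 4.41% for Itgax. In the 9 others it held between 0.775% (Itgb2) and 55.4% (Itgb5). Over the 10 group means, the genes most like Itgax among 7725 that varied by over 1 on the log2 scale included Rpn1 (Pearson r 0.963), Cd320 (0.921), Nudt9 (0.913) and Calr (0.911), a description over means that share libraries. The other subunits had r to Itgax between -0.41 (Itgb7) and 0.51 (Itga4).

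**Figure D1:**
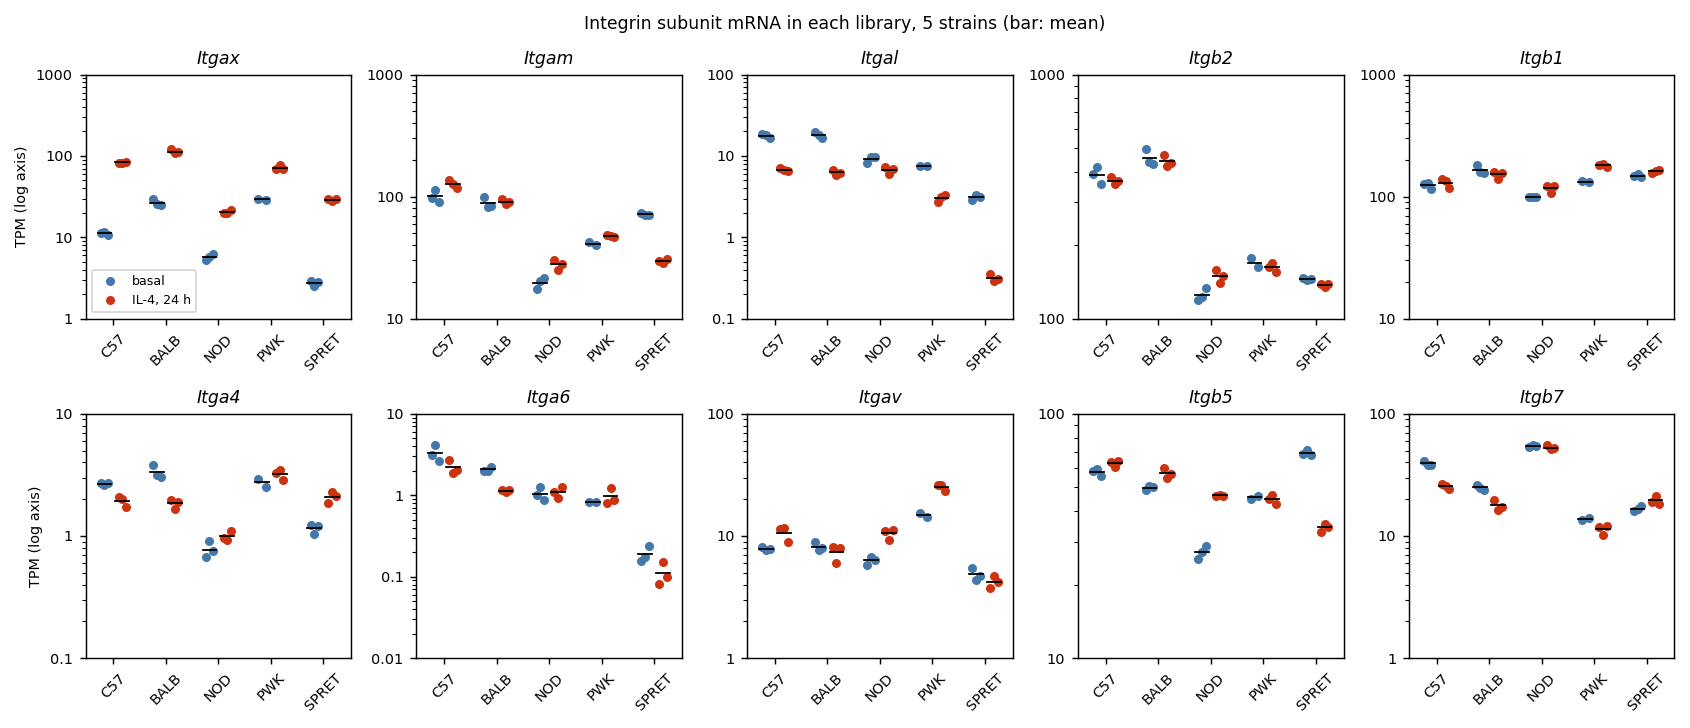
TPM of each of the 10 subunits (log axis) in each library of the 5 strains, basal in blue and after 24 hours of IL-4 in red, with a bar at the mean. Itgax rose and Itgal fell in every strain, Itgb2 was higher in C57 and BALB than in the other 3 strains, and Itgam and Itgb5 fell in SPRET.

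The other subunits moved by strain. Of the 10 members, 3 rose and 4 fell in C57 (over all 11907 genes tested, 15.0% rose and 20.5% fell), in BALB 2 rose and 4 fell (9.45% and 24.8%), in NOD 6 rose and 1 fell (28.2% and 6.07%), in PWK 3 rose and 2 fell (18.6% and 6.08%), and in SPRET 3 rose and 3 fell (31.4% and 12.9%). On the log2 scale, the median change over all genes was -0.11 (BALB), 0.11 (SPRET) and 0.12 (NOD). After rescaling each library by the median of its gene ratios, the share of all calls that rose went from 82.3% to 41.7% in NOD, from 70.9% to 48.1% in SPRET, from 75.3% to 49.4% in PWK and from 27.6% to 57.6% in BALB, and the members that rose and fell were then 5 and 4 in C57, 4 and 2 in NOD, 2 and 5 in SPRET, 3 and 3 in PWK and 3 and 4 in BALB. For the members the median change was 0.25 (NOD), 0.14 (PWK), -0.01 (C57), -0.09 (SPRET) and -0.13 (BALB).

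Itgal, the alpha chain of LFA-1, fell in all 5 strains, on the log2 scale by 1.64 (SPRET), 1.39 (BALB), 1.26 (C57), 1.07 (PWK) and 0.38 (NOD), with adjusted p of 0.00066 or less from limma. In SPRET it went from 2.87, 3.31 and 3.13 TPM to 0.356, 0.287 and 0.309 TPM, and in C57 from 18.4, 18.0 and 16.7 TPM to 7.14, 6.71 and 6.50 TPM. The fall was smaller in NOD than in C57 (0.88 ± 0.11, adjusted p = 1.9e-06 from limma). On the log2(TPM + 1) scale it was larger in SPRET than in C57 by 0.37 (adjusted p = 0.013 from limma), a sign that reversed to 0.34 with a pseudocount of 5 TPM. The basal mean was 9.77-fold the IL-4 mean in SPRET and 2.61-fold in C57. S100a8, a granulocyte marker, also fell with IL-4 in C57, BALB, NOD and SPRET, and its part in the fall of Itgal was not tested.

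Itgam and Itgb5 fell in SPRET. Itgam, the alpha chain of Mac-1, was 72.9, 71.1 and 71.2 TPM in SPRET basal and 29.6, 28.4 and 30.6 TPM with IL-4, where in C57 it was 98.3, 113 and 90.9 TPM and 138, 127 and 117 TPM. The response differed between SPRET and C57 by -1.59 ± 0.12, adjusted p = 1.1e-10 (limma). Itgb5 was 68.7, 71.3 and 67.9 TPM in SPRET basal and 32.8, 35.5 and 34.4 TPM with IL-4, and 25.4, 27.3 and 28.8 TPM and 46.2, 46.6 and 46.2 TPM in NOD. Its response was lower in SPRET than in C57 (-1.11 ± 0.07, adjusted p = 2.4e-12) and higher in NOD (0.63 ± 0.07, adjusted p = 1.0e-07 from limma). SPRET basal Itgb5 was the highest of the 5 strains, and its level with IL-4 was the lowest. In the transcripts of GENCODE vM21, 67.6% of the 75-base windows of Itgam are shared with Gm49368, an overlapping gene model that is not a row in the tables, and 5.55% of those of Itgax with Itgad, whose level was at most 2.02 TPM.

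Itgb2 was among the most abundant members, and IL-4 held the smallest share of its variation among the 10. Its basal mean was 455 TPM in BALB and 389 TPM in C57, against 125 TPM in NOD, 146 TPM in SPRET and 169.8 TPM in PWK, a 3.63-fold range. Strain held 98.5% of its variation. The only call with IL-4, 0.25 ± 0.06, adjusted p = 0.0027 in NOD (limma), was lost after rescaling (0.07, adjusted p = 0.27). Itgb7, the partner of alpha 4 on cells that home to mucosa, was highest in NOD, at 53.9, 55.7 and 54.5 TPM basal and 55.1, 51.5 and 52.3 TPM with IL-4, and fell in C57 and BALB, and in PWK in a call that was lost without PWK IL-4 replicate 2 (-0.19) or PWK basal replicate 2 (-0.24). The rise in SPRET (0.21, adjusted p = 0.013 from limma) was lost under rescaling (0.07) and without SPRET IL-4 replicate 2 (0.15) or SPRET basal replicate 1 (0.19). Itga4 fell in C57 and BALB and rose in SPRET (0.53 ± 0.09, adjusted p = 2.0e-05 from limma). Exons of Cerkl on the opposite strand overlap 8.04% of the exon bases of Itga4, and those of Gm13684 overlap 5.9% of Itgav, and whether strand was used in counting is not given. Itga6 fell in C57 and BALB, from 3.32 to 2.21 TPM and from 2.08 to 1.14 TPM, the fall in C57 being lost without C57 basal replicate 2 (-0.28), and was at most 0.235 TPM in the SPRET libraries of this table. Itgav rose in C57, NOD and PWK and was highest in PWK with IL-4, at 26.4, 26.1 and 23.1 TPM. Itgb1, the common beta chain of the matrix receptors, varied least between strains (a 1.67-fold range basal and 1.54-fold with IL-4) and rose most in PWK, from 134 and 131 TPM to 181, 186 and 174 TPM (0.45 ± 0.08, adjusted p = 7.4e-05 from limma).

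Under basal conditions, 9 of 10 members were lower in NOD than in C57 and 1 (Itgb7) higher, where 54.1% of all genes were lower and 20.1% higher. In SPRET 8 were lower and 2 higher (32.9% and 35.5%), in PWK 6 and 2 (41.5% and 19.7%), and in BALB 3 and 4 (18.4% and 24.8%). These 4 comparisons share the C57 libraries. The median of all genes was -0.30 on the log2 scale in NOD against C57, and the members' median was -0.97. After rescaling, Itgb1 and Itgav of NOD against C57 reversed to 0.07 and 0.07 and were no longer called. In SPRET the members' median was -0.98, where that of all genes was 0.02.

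Between the other strain pairs under basal conditions, members were called as follows, with the share of all genes called in the same direction in parentheses. NOD against BALB had 1 higher and 9 lower (18.4% and 56.7%). PWK against BALB had 1 higher and 7 lower (20.0% and 46.0%). SPRET against BALB had 1 higher and 8 lower (34.2% and 37.4%). Against BALB, most of the 10 members were lower in each of these strains, although in PWK the counts became 2 higher and 5 lower after rescaling. In NOD and PWK far more of all genes were lower than higher too, while in SPRET the split of all genes was near even. PWK against NOD had 7 higher and 2 lower (39.5% and 24.9%). SPRET against NOD had 5 higher and 5 lower (54.4% and 27.6%). SPRET against PWK had 4 higher and 6 lower (46.2% and 25.7%). After rescaling, SPRET against NOD had 3 higher and 6 lower, and SPRET against PWK 2 and 6. Of the 100 basal comparisons (10 members in 10 pairs), 91 passed. The pairs reuse the same groups, so these are not independent results. The count is to be read beside the shares of all genes called in each pair, given here and above, which are large too. Itgb2, Itgb5 and Itgb7 passed in all 10 pairs, and Itgb1 and Itga4 in 8.

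With IL-4, 83 of the 100 passed, again over pairs that reuse the same groups and beside the large shares of all genes that follow. BALB against C57 had 3 higher and 5 lower (20.3% and 24.1%). NOD against C57 had 1 higher and 6 lower (24.7% and 42.0%). PWK against C57 had 3 higher and 7 lower (28.5% and 33.1%). SPRET against C57 had 1 higher and 8 lower (46.8% and 26.6%). Against C57, more members were lower than higher in all 4 strains. More of all genes were lower too in BALB, NOD and PWK, but not in SPRET. NOD against BALB had 2 higher and 6 lower (25.0% and 39.6%). PWK against BALB had 3 higher and 6 lower (30.8% and 31.3%). SPRET against BALB had 0 higher and 7 lower (48.2% and 26.9%). Against BALB, more members were lower than higher in NOD, PWK and SPRET. For all genes this was so in NOD and, by a small margin, in PWK, but not in SPRET. PWK against NOD had 5 higher and 2 lower (39.1% and 27.7%). SPRET against NOD had 3 higher and 5 lower (53.7% and 27.3%). SPRET against PWK had 1 higher and 9 lower (49.3% and 26.0%). The lowest counts were those of Itgal, Itga4 and Itga6, each in 7 of 10 pairs. Itgal of SPRET was below every other strain after IL-4, and the range of Itgal was 5.81-fold basal and 21.4-fold with IL-4.

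The change with IL-4 itself also differed from that of C57 for some members. In NOD there were 6 higher and 1 lower (26.0% and 7.32%), in PWK 4 higher and 1 lower (16.8% and 5.58%), in SPRET 2 higher and 4 lower (24.4% and 8.94%) and in BALB 0 higher and 2 lower (5.43% and 10.4%). After rescaling the counts in PWK turned to 2 higher and 3 lower, and 44.4% of all calls were then higher. In NOD they were then 4 and 1. Itgax was among the lower ones in NOD, PWK and BALB. In NOD, Itgal, Itgb2, Itga4, Itga6, Itgb5 and Itgb7 had a higher change than in C57, of which Itgb2 (0.10) and Itga6 (0.32) were lost after rescaling. The Itga6 differences in NOD and PWK were also lost without C57 basal replicate 2 (0.32 and 0.39) and without several other libraries. In PWK, Itga6 and Itgb7 were lost after rescaling as well (0.43 and 0.17). In SPRET, Itga4 and Itgb7 were higher, by 0.85 and 0.81 on the log2 scale. The BALB difference for Itgav (-0.52) was lost without BALB IL-4 replicate 2 (-0.40), BALB basal replicate 1 (-0.46), C57 IL-4 replicate 1 (-0.47) or C57 IL-4 replicate 2 (-0.46).

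**Figure D2:**
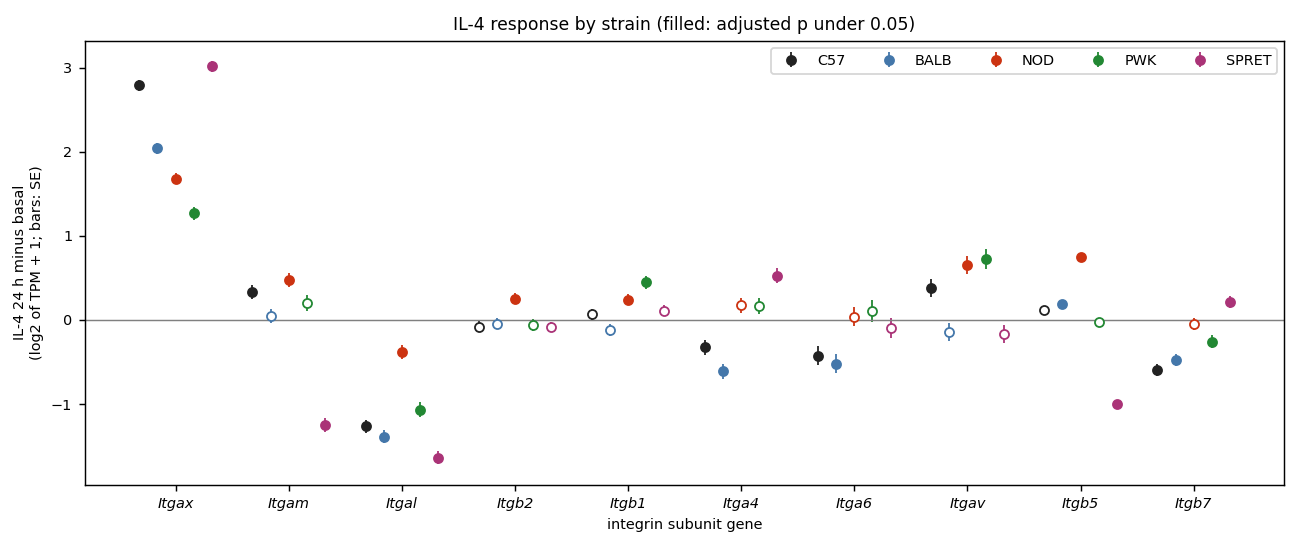
Log2 change of each subunit from basal to 24 hours of IL-4 in each strain, with the standard error from limma (filled symbols passed an adjusted p of 0.05). Itgax lies between 1.27 and 3.01, Itgal between -1.64 and -0.38, and SPRET stands below the other strains for Itgam and Itgb5.

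The time course showed when these changes arose in C57 and SPRET. In C57, Itgax was 82.2 and 76.4 TPM basal, 80.4 and 75.3 TPM at 1 hour, 118 and 118 TPM at 6 hours and 373 and 394 TPM at 24 hours. In SPRET it was 6.99 and 7.17 TPM, 15.9 and 13.0 TPM, 62.2 and 51.4 TPM and 84.5 and 75.1 TPM. Thus SPRET Itgax rose at 1 hour (0.93 ± 0.10, adjusted p = 4.3e-05), while the C57 value was -0.03 ± 0.10, adjusted p = 0.96, and the response differed at 1 hour (0.95 ± 0.14, adjusted p = 0.0025), at 6 hours (2.26 ± 0.14, adjusted p = 1.3e-06) and at 24 hours (1.06 ± 0.14, adjusted p = 1.5e-04, all from limma). The level in SPRET still stayed below C57 at every time. In SPRET basal the summed dendritic cell markers were between 5.69 and 5.90 TPM, with Xcr1 the highest at a mean of 2.02 TPM. With IL-4, when they were mostly Batf3, they were between 31.4 and 31.8 TPM at 1 hour, between 43.7 and 46.6 TPM at 6 hours and between 41.5 and 44.6 TPM at 24 hours. In C57 these markers moved from between 4.08 and 4.69 TPM basal to between 14.9 and 17.2 TPM at 1 hour. Their part in the Itgax values was not tested. In the 5-strain table the 24-hour responses of both strains did not differ past the threshold.

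At the earliest time, Itgax in SPRET was the only member to pass in either strain (in C57 2.73% of 12088 genes rose and 1.22% fell, with 0 members at an unadjusted p under 0.05 in C57, and in SPRET 4.83% and 3.92%). At 6 hours, 1 member rose and 4 fell in C57 (10.9% and 9.55%) and 2 rose and 6 fell in SPRET (16.9% and 13.7%). At 24 hours, 2 rose and 3 fell in C57 (18.2% and 21.1%), and 1 rose and 8 fell in SPRET (14.8% and 21.8%). The difference between the strains in response passed for 1 member at 1 hour, Itgax (1.41% of genes higher in SPRET and 0.91% lower), for 1 higher and 3 lower at 6 hours (5.85% and 5.29%) and for 1 higher and 4 lower at 24 hours (12.8% and 16.1%). Itgam of SPRET fell from 368 and 394 TPM to 277 and 287 TPM at 6 hours and 178 and 174 TPM at 24 hours, when C57 stood at 454 and 463 TPM (difference of the responses -1.34 ± 0.06, adjusted p = 3.6e-08 from limma). Itgb5 fell in SPRET from 65.1 and 70.7 TPM to 38.5 and 35.9 TPM, and in C57 it was 60.6 and 61.3 TPM and 63.9 and 60.6 TPM. Itgal fell from 11.2 and 12.3 TPM to 1.73 and 1.48 TPM in SPRET and from 42.3 and 41.6 TPM to 14.8 and 13.5 TPM in C57.

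Some strain differences were not the same in both tables. Basal, 4 members were higher and 5 lower in SPRET than in C57 in the time course (34.3% and 26.4% of genes), and 2 higher and 6 lower after rescaling, where the 5-strain table had 2 and 8. Basal Itga4 of SPRET stood above C57 in the time course (1.00 ± 0.09, adjusted p = 6.3e-07 by limma) and below it in the 5 strains (-0.77). Basal Itgb7 was likewise higher in SPRET here (0.44) and lower in the 5 strains (-1.18, all adjusted p under the threshold by limma). In SPRET at 24 hours, Itga4 fell here by 0.56 and rose by 0.53 in the 5 strains, and Itgb7 fell by 0.44 here and rose by 0.21 there. The cause was not tested. Itgax, Itgal, Itgam and Itgb5 kept their direction of 24-hour change in both tables in SPRET.

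**Figure D3:**
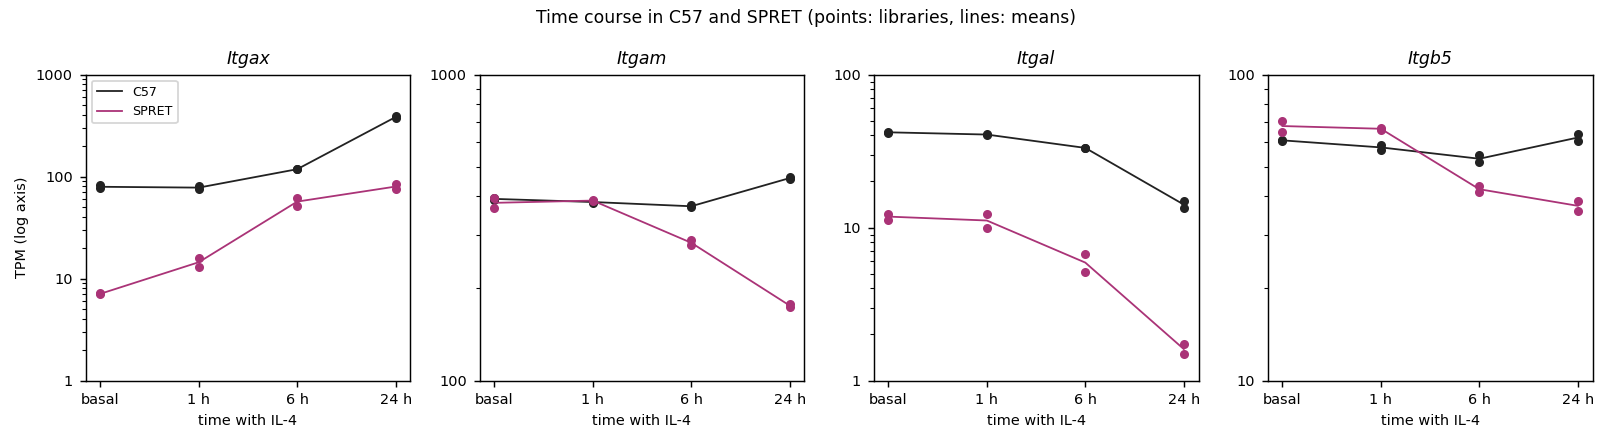
TPM of Itgax, Itgam, Itgal and Itgb5 (log axis) against the time with IL-4 in C57 (black) and SPRET (purple), with points for the 2 libraries and lines through the means. Itgax of SPRET rises from the first hour, and Itgam and Itgb5 fall in SPRET from 6 hours.

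Egr2, a zinc finger transcription factor that IL-4 induces, was lower in Egr2MKO at every time. Egr2WT cells held 21.3 and 23.6 TPM of Egr2 basal and 99.5 and 101 TPM after 24 hours, and Egr2MKO cells 0.854 and 0.859 TPM and 4.72 and 7.05 TPM. Itgax was 25.4 and 25.8 TPM in Egr2WT and 2.45 and 2.25 TPM in Egr2MKO basal, 10.9-fold lower in Egr2MKO. At 24 hours it was 159 and 164 TPM and 6.83 and 7.25 TPM, 22.9-fold lower. On the log2 scale the differences were -2.99 basal, -3.01 at 1 hour, -3.28 at 6 hours and -4.34 at 24 hours (SE 0.07, adjusted p of 1.9e-10 or less from limma). IL-4 still raised Itgax in Egr2MKO at 24 hours (1.26 ± 0.07, adjusted p = 4.2e-08), by less than in Egr2WT (2.61 ± 0.07, adjusted p = 2.0e-10, difference of the responses -1.35 ± 0.10, adjusted p = 7.4e-06 from limma). In the 5 strains, mean Egr2 went from 27.2 to 28.8 TPM in NOD (log2 change 0.08, adjusted p = 0.50 from limma), from 17.6 to 38.3 TPM in BALB, from 3.41 to 16.8 TPM in PWK, from 13.4 to 55.4 TPM in C57 and from 2.01 to 50.4 TPM in SPRET. The log2 change of Egr2 in PWK was 2.01. Whether the changes of Egr2 and Itgax went together over the strains was not tested. Dendritic cell markers added up to between 3.21 and 21.1 TPM over all libraries of this table, and Flt3 was at most 0.468 TPM.

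Of the other members, Itgb2 was lower in Egr2MKO at all 4 times. It was 1037 and 1016 TPM in Egr2WT and 827 and 831 TPM in Egr2MKO basal. By 24 hours it was 1044 and 1018 TPM in Egr2WT, where the change was 0.01 ± 0.03, adjusted p = 0.91 by limma and -0.18 after quantile normalization, and 434 and 446 TPM in Egr2MKO, so that the responses differed by -0.92 ± 0.05, adjusted p = 9.9e-07 (limma). Itgal fell from 34.2 and 35.7 TPM to 9.66 and 10.2 TPM in Egr2WT and from 39.4 and 39.1 TPM to 6.30 and 6.99 TPM in Egr2MKO, a larger fall (-0.68 ± 0.09, adjusted p = 4.0e-04 from limma). Itgb7 was higher in Egr2MKO at all 4 times, by 0.25 to 0.63 on the log2 scale. At 24 hours it was 22.9 and 23.7 TPM in Egr2WT and 36.5 and 35.7 TPM in Egr2MKO.

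In number, 2 members were lower and 1 higher in Egr2MKO basal, where 5.56% and 5.95% of 12079 genes were. At 1 hour these were 3 and 1 (5.37% and 6.04%), at 6 hours 3 and 1 (9.12% and 11.5%), and at 24 hours 5 and 1 (11.5% and 25.9%). The log2 response to IL-4 at 24 hours was lower in Egr2MKO for 4 members (Itgax, Itgb2, Itgal and Itgam) and higher for Itgb7 (3.85% and 8.78% of all genes), that of Itgam being lost without replicate 1 of any of the 4 groups (-0.24 to -0.26). At 6 hours Itgb7 was the only member to differ (0.455% of genes were higher and 0.646% lower), and at 1 hour none did by limma (0 at an unadjusted p under 0.05, 0.0166% and 0.0%). The Itgb7 differences in response were lost at both times after rescaling. The calls for Itgb7 basal, for Itgam at 1 hour, for Itga4 at 6 hours and for Itgb5 at 24 hours were lost when any library of the groups compared was left out, with values of 0.24 to 0.27, -0.13 to -0.20, -0.17 to -0.23 and -0.17 to -0.26, and that for Itgb7 at 1 hour was lost without Egr2WT replicate 1 (0.26). Against basal, no member passed at 1 hour by limma in Egr2WT (1 at an unadjusted p under 0.05, 2.34% of genes rose and 0.894% fell) or in Egr2MKO (3 at an unadjusted p under 0.05, 2.93% and 1.2%), 2 rose and 5 fell at 6 hours in each (Egr2WT 16.2% and 9.21%, Egr2MKO 19.2% and 10.5%), and 3 rose and 4 fell at 24 hours in each (Egr2WT 12.0% and 18.2%, Egr2MKO 16.2% and 11.8%). After rescaling, the 6-hour counts were 1 risen and 5 fallen in Egr2WT and 0 and 6 in Egr2MKO. The basal libraries are shared by the 3 times. Itgb1, Itga6 and Itgav did not differ past the threshold between the genotypes at any of the 4 times.

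**Figure D4:**
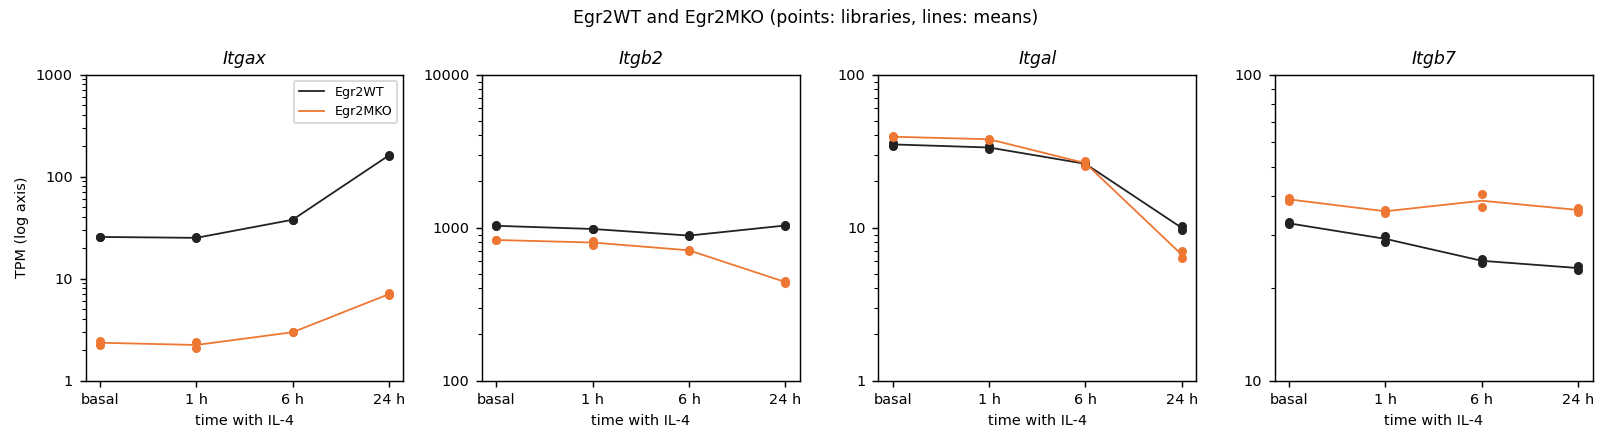
TPM of Itgax, Itgb2, Itgal and Itgb7 (log axis) against the time with IL-4 in Egr2WT (black) and Egr2MKO (orange), with points for the 2 libraries and lines through the means. Itgax of Egr2MKO stays between 2.08 and 7.25 TPM, and Itgb2 of Egr2MKO falls at 24 hours.

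In F1 C57 x SPRET cells, both alleles are in the same cells, and the alleles were compared within a library. The allele values are the authors' reads weighted by the share of reads with each parent's variants. Basal, 4 of the 10 members had a higher C57 allele and 1 a higher SPRET allele, where 6.41% and 7.62% of 11490 genes did. Itgal had 17.2 and 16.5 for C57 and 4.19 and 4.06 for SPRET (1.80 ± 0.22, adjusted p = 0.022), and Itga6 had 9.01 and 9.22 and 2.30 and 2.46 (1.58 ± 0.16, adjusted p = 0.018 from limma). The parental strains differed by 2.19 and 1.85 on the log2(TPM + 1) scale. For Itga6 the parental basal means were 3.32 TPM in C57 and 0.188 TPM in SPRET, a 17.7-fold ratio that the added 1 shrinks. Itgax had 20.9 and 21.7 for C57 and 13.3 and 13.7 for SPRET. The log2 ratio of the alleles was 0.62 ± 0.08, adjusted p = 0.023 from limma, where the parental strains differed by 1.71. These parental differences are from the all-strain comparison, where mean basal Itgax was 11.2 TPM in C57 and 2.74 TPM in SPRET. In the time course it was 82.2 and 76.4 TPM in C57 and 6.99 and 7.17 TPM in SPRET, a larger ratio. With IL-4, the Itgax alleles were 148 and 152 and 112 and 108, so that both had risen and the IL-4 and basal libraries did not overlap. Itgam had a higher SPRET allele basal (98.3 and 111 against 151 and 153, -0.53 ± 0.09, adjusted p = 0.035) and a higher C57 allele with IL-4 (74.6 and 83.7 against 52.4 and 56.0, 0.54 ± 0.09, adjusted p = 0.047 from limma). The change in the allele ratio of Itgam did not pass the threshold itself (1.07 ± 0.12, adjusted p = 0.43 from limma). Basal, the parents and the alleles differed in sign for Itgam (C57 over SPRET 0.48 in the parents). The same was so for Itgb7 (1.18 in the parents, -0.43 in the alleles), Itga4 (0.77 and -0.05) and Itgb5 (-0.26 and 0.09), whose allele ratios did not pass. For the other members the basal signs were the same. In the time course, basal Itga4 and Itgb7 were higher in parental SPRET, the sign of their alleles.

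With IL-4, Itgam was the only member called, where 4.02% of genes had a higher C57 allele and 4.29% a higher SPRET allele. No member changed its allele ratio with IL-4 past the limma threshold (2 had an unadjusted p under 0.05, and 0.0174% of genes passed in each direction). With 2 libraries per group, every basal call but that of Itga6 was lost when a library was left out, and the IL-4 call of Itgam likewise. In F1 C57 x NOD cells, 6 members were tested and none passed by limma (at an unadjusted p under 0.05 there was 1 basal and 0 with IL-4 or for the change), where 0.234% of 5121 genes had a higher C57 allele and 0.137% a higher NOD allele basal, 0.176% and 0.156% with IL-4, and 0.0% and 0.0% for the change between them. Itgax had 574 and 579 for C57 and 624 and 632 for NOD with IL-4 (allele ratio -0.12 ± 0.07 on the log2 scale), while the parental strains differed by 1.97. Itgam, Itgb2, Itgb5 and Itgb7 are listed at 0 for both alleles, so their alleles could not be compared. Of their basal means in the C57 and NOD parents, the lowest was 19.8 TPM (Itgam in NOD). Between 78.9% and 83.6% of the genes listed are at 0 in this cross, whose values rest on reads that overlap parental variants. A value of 0 here does not show that the mRNA is absent.

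**Figure D5:**
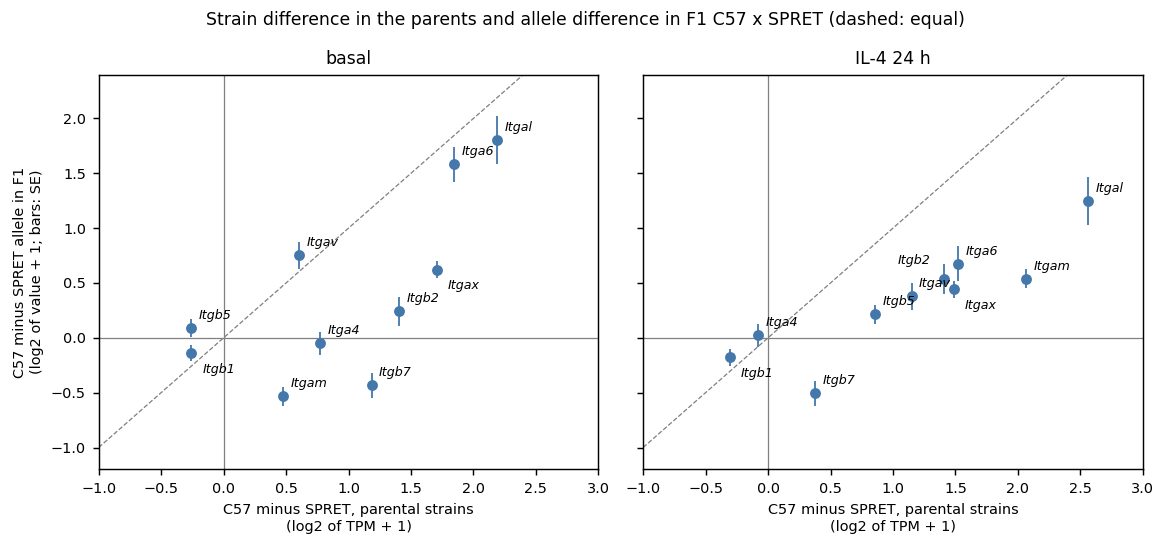
C57 minus SPRET on the log2 scale in the parental strains (horizontal) and between the alleles of F1 C57 x SPRET cells (vertical, with the standard error), basal and after 24 hours of IL-4, for the 10 subunits. Basal, Itgal, Itga6 and Itgav lie near the dashed line of equal differences, and Itgax, Itgam, Itgb2, Itga4 and Itgb7 lie below it. Itgam and Itgb7, and by a small margin Itga4, have a higher SPRET allele there and a higher level in parental C57 of the all-strain comparison. In the time course, basal Itga4 and Itgb7 were higher in parental SPRET.

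Other integrin genes and their partners were taken as lists. Of 17 further subunits, 7 passed the filter in the 5 strains, of which 3 rose and 1 fell in C57 (15.0% and 20.5% of all genes). In BALB 2 rose and 1 fell (9.45% and 24.8% of all genes), and in PWK 2 and 1 (18.6% and 6.08%). In NOD 3 rose and 0 fell (28.2% and 6.07%), and in SPRET 2 and 3 (31.4% and 12.9%). Itgb3, the beta 3 chain that pairs with alpha v, rose in all 5 strains, by between 0.76 (PWK) and 1.91 (C57) on the log2 scale. Mean TPM of Itgb3 went from 13.4 to 53.1 in C57, and its level was lower in Egr2MKO than in Egr2WT both basal (-1.70 ± 0.07) and at 24 hours (-1.88 ± 0.07), with a difference in the 24-hour response of -0.18 (adjusted p = 0.30, limma). Itga5, the fibronectin receptor alpha chain, fell in 4 strains and rose in 1, by at most 0.44. Of 34 activators and adaptors, 30 were tested, of which 7 rose and 11 fell in C57 (15.0% and 20.5% of all genes, with a list median of -0.10 and -0.04 for all genes) and 12 rose and 5 fell in NOD (28.2% and 6.07%). Zyx, a focal adhesion protein, rose in all 5 strains, and Lyn, a Src-family kinase, fell in all 5. Fgr, of the same family, was 80.1 TPM in SPRET and 0.861 TPM in NOD basal. Of 26 listed ligands, 13 were tested, of which 8 rose and 4 fell in C57 (15.0% and 20.5% of all genes, list median 0.37). In BALB 6 rose and 4 fell (9.45% and 24.8% of all genes), and in NOD 4 and 2 (28.2% and 6.07%). In PWK 8 rose and 4 fell (18.6% and 6.08%), and in SPRET 6 and 3 (31.4% and 12.9%). Cdh1, the ligand E-cadherin, rose in all 5 strains, by 0.70 in NOD and 3.12 in C57. Fn1, fibronectin, went from 32.6 to 156 TPM in SPRET and from 0.475 to 5.26 TPM in C57. Mfge8, which bridges apoptotic cells to alpha v integrins, was 611 TPM in C57 and 2.00 TPM in SPRET basal.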

How the data were processed

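RNA of BMDMs was sequenced from poly(A)-selected, strand-marked libraries. The deposited TPM values were made by the authors, who mapped reads with STAR to the genome of each strain, moved positions to mm10 and counted exons of each gene with HOMER. Whether the counting used strand is not given in the sources used here. In the F1 tables the authors weighted expression by the reads that overlap variants of each parent and listed each allele on its own, and their depth is unknown. The columns of the authors' own DESeq2 comparisons (fold changes and p-values) were not used, nor was a table of human macrophages.

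Values were taken as log2(TPM + 1) for genes that reached 1 TPM in 2 or more libraries. Each of the main tables was fitted on its own with limma 3.58.1 (R 4.3.3), with a mean per group and an intensity trend, and in the F1 tables the log2 ratio of the alleles was fitted per library. P-values were adjusted by Benjamini-Hochberg over all genes tested in a comparison, and a call had an adjusted p under 0.05. Fold changes on this scale understate the change of low genes. Fits were tested on simulated data. Summaries used Python 3.11.15. A list gene was named if it passed in the same direction in at least 3 of 5 strains (up to 4 per list, by mean change) or had one of the 3 widest basal ranges of its list. Some genes that met these rules are not reported here. The members and lists were chosen with earlier results of these data known. Promoter windows and transcripts came from RefSeq (GRCm38.p6) and GENCODE vM21.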

Additional observations from a re-analysis of the deposited data

Results flagged for a closer look

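Among the 10 members, the IL-4 response of 3 (Itgax, Itgam and Itgb5) differed between groups by more than 1 on the log2 scale, by the limma test of the difference itself. For Itgax, the response in the 5 strains was lower than in C57 by 1.11 in NOD (-1.11) and by 1.52 in PWK (-1.52), with every IL-4 library above every basal library in all 3 strains. In the time course the Itgax response of SPRET minus that of C57 was 2.26 at 6 hours and 1.06 at 24 hours, from a basal SPRET level of 6.99 and 7.17 TPM.

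Itgam differed between SPRET and C57 by -1.59 in the 5 strains and by -1.34 at 24 hours in the time course, so that the direction was shared by these separately fitted tables. Itgb5 differed between SPRET and C57 by -1.11 in the 5 strains. The Itgax response at 24 hours in Egr2MKO minus that in Egr2WT was -1.35. No group had 4 or more libraries, so single libraries were not tested for standing apart.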

How the results depend on the processing

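Calls over the members were counted again under each alternative. With a library left out, the number of calls ranged from 30 to 32 for the IL-4 response in 5 strains (31 as reported), from 17 to 22 for its difference from C57 (20), from 88 to 93 for basal strain pairs (91), from 82 to 85 for pairs with IL-4 (83), from 24 to 32 for the time course (28), from 15 to 19 for its strain difference (19), from 24 to 30 for the responses in the Egr2 libraries (28), from 18 to 28 for Egr2MKO against Egr2WT (23), and from 0 to 9 for F1 C57 x SPRET alleles (6). In F1 cells with a library left out, the lone sample is assumed to vary like the other groups. The F1 C57 x SPRET count was 3 with a pseudocount of 0.1 and 2 with no filter.

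Replicate numbers were not used to pair the samples in the main fits. Residuals of libraries with the same number had a mean correlation of 0.0134 (5 strains), 0.0305 (time course) and -0.0046 (Egr2 libraries). These means are over all pairs of groups (126 pairs in the 5 strains, the highest at 0.333), including pairs of different strains. They therefore cannot show whether basal and IL-4 libraries of a strain share an animal. With the replicate block the counts were 31, 20, 93, 84, 29, 19, 28 and 20, in the order above.

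Some signs reversed, and the cause was not tested. With a pseudocount of 5 TPM these were the SPRET minus C57 responses of Itgax (-0.30) and Itgal (0.34). With rescaling by the median of gene ratios they were, basal, NOD minus C57 for Itgb1 (0.070) and Itgav (0.066), NOD minus BALB for Itgav (0.069), PWK minus BALB for Itgb5 (0.13), SPRET minus NOD for Itgb2 (-0.21) and SPRET minus PWK for Itgb1 (-0.070), and, with IL-4, SPRET minus BALB for Itgb1 (-0.18) and SPRET minus NOD for Itgam (-0.29). With quantile normalization they were basal Itgav of NOD minus C57 (0.068) and minus BALB (0.066), Itgam of SPRET minus NOD with IL-4 (-0.20) and Itgb2 at 24 hours in Egr2WT (-0.18).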
